A study of Mus musculus with 6 samples.

Results

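The genes of 9 digestive enzymes of the intestinal brush border were followed in an ATAC-seq data set of mouse small intestinal organoids: the disaccharidases Sis, Lct, Mgam and Treh, the peptidases Anpep, Dpp4, Mep1a and Mep1b, and the alkaline phosphatase Alpi. ATAC-seq counts the places where the transposase Tn5 cuts open chromatin. Of 55056 windows of 200 bp with deposited read counts on the mouse genome build GRCm38 (mm10), the members were the 33 windows whose nearest end of a protein-coding gene was that of an enzyme gene and lay within 50 kb. They belonged to 8 of the 9 genes, out of 15996 genes that had a window under the same rule, since Lct had none. Inside an enzyme gene lay 13 of the windows, and 20 lay outside.

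Of the 6 libraries, 3 came from organoids given 100 ng/mL of RANKL, the TNF family ligand of RANK that turns organoid cells towards the microfold (M) cell fate, for 6 days, after 3 days of 3 µM CHIR99021, a GSK3 inhibitor, together with 1.5 mM valproic acid, a histone deacetylase inhibitor, and 1 day in ENR medium. The 3 control libraries were from organoids kept in ENR medium (EGF, Noggin and R-spondin 1) and taken on day 6. All came from line26, called wild type in the labels, a single organoid line from a female Lgr5GFPDTR/+ mouse, which carries a GFP and diphtheria toxin receptor cassette in the stem cell gene Lgr5, and the replicates were separate differentiation experiments. P-values therefore measure the spread between experiments with 1 line. The labels do not say whether control organoids also had CHIR99021 and valproic acid, and the prefix CVENR of the control library names is not explained, so a difference between the groups cannot be told apart from those agents. The organoids are epithelial cultures without the lumen contents, microbes and stroma that act on these genes in the gut.

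Brush border enzymes are anchored in the microvillus membrane of absorptive enterocytes, where they carry out the last steps of digestion of starch, sugars and peptides. Their genes are switched on as cells leave the crypt and mature along the villus, and HNF1, HNF4, CDX and GATA factors are known to act at the promoters and enhancers of several of them. Sucrase-isomaltase (Sis) is the textbook marker of enterocyte maturation, while lactase (Lct) is highest before weaning. In bulk libraries, fewer cells with an open site and a less open site in each cell cannot be told apart.

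Mep1b had no entry in the RefSeq promoter table (GRCm38.p6), so its start was not placed. However, 1 of its windows was centred 67 bp outside an end of the gene. Windows overlapped the proximal promoter of only 3 of the 8 enzyme genes with an entry. These promoters are shown because accessibility was measured there. Each line gives the 250 bases before the start, 5′ to 3′ on the gene's strand. Capitals mark matches on either strand to the letters searched, which were TTTAT or TTTAC (CDX), GATAA or GATAG (GATA), CAAAGTCCA (HNF4), ATCGAT or ATTGAT (ONECUT, named in the series title) and the consensus strings of NF-kB and HNF1.
Sis, chr3:72967864-72968113, minus strand: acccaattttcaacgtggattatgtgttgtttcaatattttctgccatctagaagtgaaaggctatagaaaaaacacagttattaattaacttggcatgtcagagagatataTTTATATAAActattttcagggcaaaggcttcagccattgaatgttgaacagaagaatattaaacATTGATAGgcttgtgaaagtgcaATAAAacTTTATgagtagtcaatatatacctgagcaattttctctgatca
Treh, chr9:44672983-44673232, plus strand: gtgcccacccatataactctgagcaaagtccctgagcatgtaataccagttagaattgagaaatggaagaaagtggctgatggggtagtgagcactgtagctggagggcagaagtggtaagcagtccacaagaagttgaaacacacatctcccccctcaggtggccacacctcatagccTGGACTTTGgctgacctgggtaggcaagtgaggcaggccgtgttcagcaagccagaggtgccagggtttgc
Alpi, chr1:87101607-87101856, minus strand: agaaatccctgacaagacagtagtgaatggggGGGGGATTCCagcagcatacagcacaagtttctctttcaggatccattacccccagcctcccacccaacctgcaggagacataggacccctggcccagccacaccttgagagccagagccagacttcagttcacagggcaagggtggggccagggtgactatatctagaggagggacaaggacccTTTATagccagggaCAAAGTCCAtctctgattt

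Over the 300 bases searched (250 before and 50 after the start), the HNF4 letters were in the promoters of Treh, 71 bases before the start, and Alpi, 19 bases before it, and in 0.475% of all 32851 promoters in the table. TTTAT was in 6 of the 8 enzyme promoters and in 40.0% of all promoters, and the Sis promoter held it 4 times counting both strands, once as the pair TTTATATAAA. GATAA or GATAG was in 5 of the 8 and in 41.6% of all, and TTTAC in that of Lct alone and in 31.5% of all. ATTGAT was in the Sis promoter alone, where it shares 3 bases with GATAG, and in 7.54% of all promoters, whereas ATCGAT (0.925% of all) and the 13-letter HNF1 string (0.00913% of all) were in none of the 8. The NF-kB letters were in the Alpi promoter alone, 218 bases before the start, and in 5.56% of all. A match in these letters is a description of the sequence and not a measured binding site. None of the 3 promoter windows was called on its 200-bp counts, and that of Alpi was under the filter on low counts.

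The 3 RANKL libraries held 322173, 466521 and 828445 counts over all windows and the 3 control libraries 920681, 976881 and 455083, so that 3 counts were worth 3.04 to 9.41 CPM, the count scaled to a common library total. The central 200 bp held 33.9% to 36.5% of the reads of the surrounding 2 kb in RANKL libraries, against 39.9% to 41.0% in control libraries, and at the enzyme windows 40.2% to 41.3% against 48.9% to 50.1%. Reads were thus more spread around the windows in every RANKL library. The part of this shift in the differences was not tested, and results are therefore also given on the wider windows of 2 kb around the same centres.

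With RANKL, the 200-bp counts of the enzyme genes together were lower, and the log2 fold changes of single genes ran from -1.04 to 0.46. Summed over their 33 windows, the enzyme genes had 596.2, 677.4 and 649.1 CPM in RANKL libraries, against 834.8, 819.9 and 852.5 CPM in control libraries, and the groups did not overlap. This pooled sum was not tested. Mean CPM was lower with RANKL in Sis, Mgam, Treh, Dpp4, Mep1a and Mep1b, and higher in Anpep and Alpi. Of the 7 genes deep enough to test on their summed windows, Sis, Mep1a and Mgam were lower and none was higher (edgeR quasi-likelihood test, adjusted p at or under 0.05 over 12467 genes, n = 3 per group). Over all genes tested, 8.30% were lower and 7.01% higher. With DESeq2 2 were lower and 0 higher, against 489 lower and 410 higher of all 12467 genes. At an unadjusted p under 0.05 in edgeR, 4 were lower and 0 higher, and all genes were not counted at that threshold. The median log2 fold change of the 7 was -0.36, against 0.01 over all genes tested, and it was below 0 in 6 of them. Every RANKL library was below every control in 3 of the 7 genes and above in 1, against 14.4% and 16.2% of all genes tested.

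**Figure D1:**
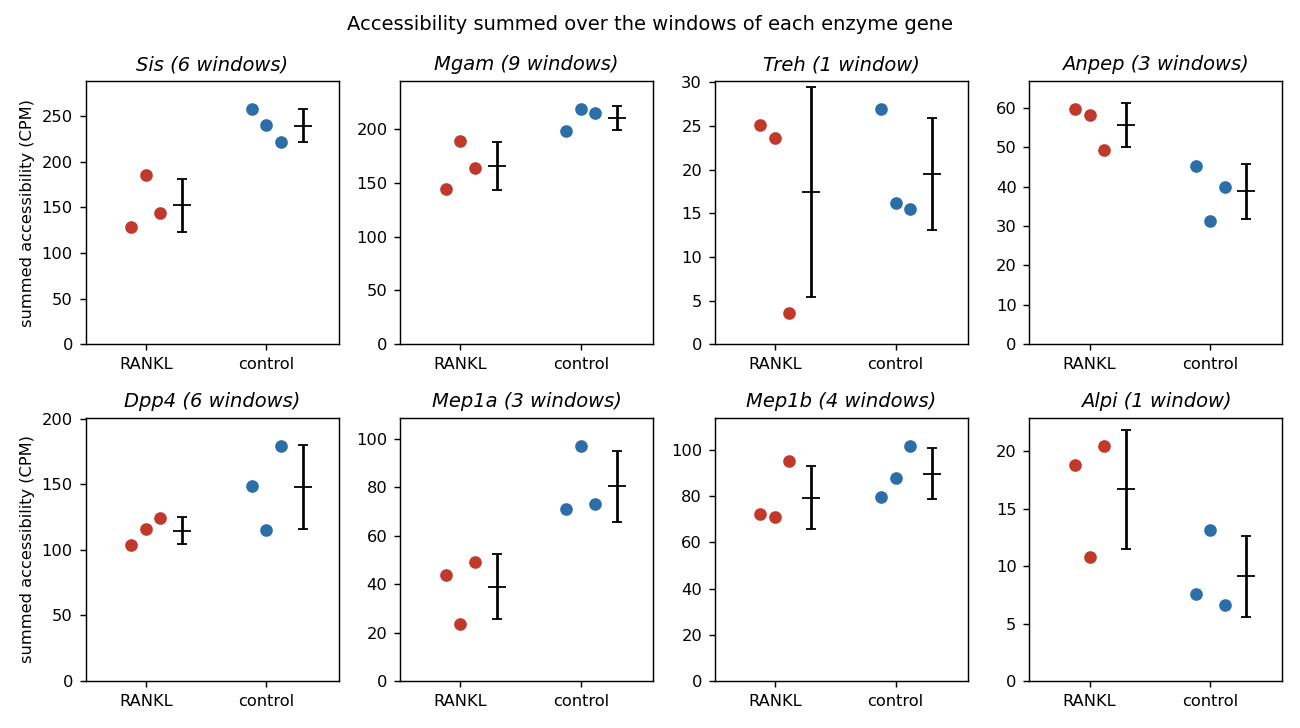
Summed CPM of the windows of each enzyme gene (y axis, linear, from 0) in the 3 RANKL libraries, left, and the 3 control libraries, right, with 1 point per library and the mean and SD. RANKL points lie below all control points for Sis (128.7 to 184.9 against 221.4 to 257.4 CPM), Mgam and Mep1a, above them for Anpep, and among them for the other genes. Lct had no window.

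Per window of 200 bp, Sis had the highest mean level in both groups, 25.4 ± 4.87 CPM in RANKL libraries and 39.9 ± 3.00 CPM in control libraries (SD, n = 3 each). In control libraries it stood clear of the next gene, Mep1a, whose libraries were all lower. In RANKL libraries the order was Sis, Mep1b, Dpp4, Anpep, Mgam, Treh, Alpi and Mep1a, and each gene's range overlapped that of the next. In control libraries it was Sis, Mep1a, Dpp4, Mgam, Mep1b, Treh, Anpep and Alpi, with neighbours overlapping except Sis and Mep1a, and Treh and Anpep. Mep1a thus held the second place in control libraries, at 26.8 ± 4.84 CPM per window, and the last in RANKL libraries, at 13.0 ± 4.52 CPM.

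Sis encodes sucrase-isomaltase, which splits sucrose and the branch points of starch. Its 6 windows held 128.7, 184.9 and 143.3 CPM in RANKL libraries, against 257.4, 239.9 and 221.4 CPM in control libraries. Every RANKL library was below every control. The sum was 1.62-fold lower with RANKL, a log2 fold change of -0.70 ± 0.13 (SE, adjusted p = 7.886e-06), with a 95% interval of -0.95 to -0.44. Between libraries of the same experiment number, which may not be pairs, the log2 ratio was -1.001, -0.38 and -0.63. On the 2-kb windows the log2 fold change was -0.72 (adjusted p = 4.0e-07), so the sum of Sis was about as much lower on the wider windows.

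All 4 tested windows of Sis lay upstream of its start and none inside the gene. The window 8932 bp upstream (chr3:72976695-72976894) had 34.5, 51.6 and 37.3 CPM in RANKL libraries, against 73.2, 67.8 and 79.7 CPM in control libraries, a log2 fold change of -0.78 ± 0.22 (adjusted p = 0.00509). The window 29827 bp upstream (chr3:72997590-72997789) had 21.97, 38.7 and 28.9 CPM with RANKL, against 60.3, 51.6 and 46.5 CPM in controls (-0.78 ± 0.27, adjusted p = 0.0232). In both of these distal windows the groups did not overlap. Over all 21618 windows tested, 10.0% were called lower and 10.0% higher, or 20.1% in either direction.

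The promoter window of Sis, centred 40 bp before the start and covering 189 of the 300 promoter bases searched, had 12.6, 40.9 and 22.9 CPM in RANKL libraries, against 43.1, 40.5 and 46.5 CPM in control libraries. RANKL replicate 2 lay among the controls, and the log2 fold change of -0.67 ± 0.31 was not called on 200 bp (adjusted p = 0.106) but was on 2 kb (-0.86, adjusted p = 0.0298), where the call was lost with loess offsets (adjusted p = 0.0944). The window 35644 bp upstream had 43.9, 40.9 and 47.0 CPM with RANKL, against 63.6, 70.9 and 46.5 CPM in controls, with -0.46 ± 0.23 on 200 bp (adjusted p = 0.149) and -0.63 on 2 kb (adjusted p = 0.0142), a call that was also lost with loess offsets (-0.40, adjusted p = 0.172). No difference in change between the 4 windows was called (within-gene test of edgeR, adjusted p = 0.852, where 22.6% of 3926 genes with 2 or more tested windows were called). The call on the Sis sum was lost when only windows within 5 kb (-0.66, adjusted p = 0.126) or within 1 kb (-0.81, adjusted p = 0.0846) were summed, which leaves out the windows called here. The window 29827 bp upstream lost its call with the replicate number as a block (adjusted p = 0.0553) and with DESeq2 (adjusted p = 0.130). Its call was also lost without the filter (adjusted p = 0.0534) and after thinning (0.334). The same held without RANKL replicate 1 (0.0763), without RANKL replicate 3 (0.118) and without control replicate 1 (0.133). The window 8932 bp upstream lost its call with DESeq2 (adjusted p = 0.0548) and without RANKL replicate 3 (0.0808).

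Mgam encodes maltase-glucoamylase, which releases glucose from the ends of starch chains. Its 9 windows held 144.4, 189.2 and 163.8 CPM in RANKL libraries, against 198.2, 218.6 and 214.8 CPM in control libraries. The groups did not overlap, but the gap between RANKL replicate 2 and control replicate 1 was small. The log2 fold change was -0.36 ± 0.13 (adjusted p = 0.0433). This call was lost in 12 of 16 alternatives, among them the fit with the replicate number as a block (-0.37, adjusted p = 0.0661), DESeq2 (adjusted p = 0.150) and the 2-kb windows (-0.23, adjusted p = 0.0929). The 2-kb windows with loess offsets gave a value near 0 (-0.034, adjusted p = 0.855), so the lower sum of Mgam rests on the 200-bp counts.

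Of the 6 tested windows of Mgam, 1 was called. It lay 9531 bp past the 3′ end (chr6:40778554-40778753) and had 3.14, 34.4 and 19.3 CPM in RANKL libraries, against 42.0, 33.4 and 42.1 CPM in control libraries, a log2 fold change of -0.88 ± 0.34 (adjusted p = 0.0464). The libraries overlapped, RANKL replicate 1 held 1 count there, and without that library the value was -0.58 (adjusted p = 0.258). With the replicate block the adjusted p was 0.0538, while the 2-kb window gave -0.99 (adjusted p = 0.0105). The other 5 tested windows, from 2540 bp upstream of the start to 49589 bp past the 3′ end, had log2 fold changes of -0.44 to 0.37 with overlapping groups. The farthest lay inside Mgam2-ps, a pseudogene copy of the maltase gene, where reads could be shared with Mgam. No difference between the windows of Mgam was called (adjusted p = 0.357).

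Treh encodes trehalase, which splits the fungal and insect sugar trehalose. Its single window, centred 30 bp inside the gene and covering 120 of the promoter bases searched, had 25.1, 23.7 and 3.61 CPM in RANKL libraries, against 26.9, 16.2 and 15.5 CPM in control libraries. Only RANKL replicate 3, with 3 counts, was apart from the rest. The sum gave -0.47 ± 0.50 (adjusted p = 0.578, 95% interval -1.45 to 0.51), and without that library the direction turned to 0.23 (adjusted p = 0.832). On 2 kb it was 0.15 (adjusted p = 0.820), so no direction can be given for Treh.

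Lct, the lactase gene, had no window whose nearest gene end was its own. The nearest windows were those of its neighbours, 5922 bp away at Ubxn4, with 1 count in each RANKL library and 7, 4 and 0 counts in control libraries, and 31367 bp away at Mcm6, with 47.1, 30.1 and 39.7 CPM in RANKL libraries, against 49.5, 57.7 and 46.5 CPM in control libraries (-0.40 ± 0.25, adjusted p = 0.276). Of 6 windows within 100 kb of Lct, 4 were tested and none was called, and accessibility at Lct itself was not measured.

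Mep1a encodes the alpha subunit of meprin, a zinc metalloprotease that cuts peptides at the brush border and is also secreted. Its 3 windows held 43.9, 23.7 and 49.4 CPM in RANKL libraries, against 71.1, 97.2 and 73.1 CPM in control libraries. Every RANKL library was below every control, with RANKL replicate 2 the lowest. The sum was 2.06-fold lower, a log2 fold change of -1.04 ± 0.23 (adjusted p = 2.542e-04, 95% interval -1.50 to -0.59), and this was the largest decrease among the 7 genes on 200-bp windows. The log2 ratio was -0.69, -2.04 and -0.57 in experiments 1 to 3. The call held in all 17 alternatives run for the gene, and on 2-kb windows the fold change was -0.70 (adjusted p = 0.00590).

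The 1 tested window of Mep1a lay 291 bp outside the gene and 1661 bp upstream of the start used in the promoter table (chr17:43504334-43504533). It had 37.7, 6.45 and 39.7 CPM in RANKL libraries, against 51.7, 65.8 and 57.6 CPM in control libraries, a log2 fold change of -0.95 ± 0.26 (adjusted p = 0.00336). RANKL replicate 2 set much of this: without it the value was -0.55 (adjusted p = 0.175), and DESeq2 gave an adjusted p of 0.322. On 2 kb it was -0.82 (adjusted p = 0.0119), and -0.60 with loess offsets (adjusted p = 0.0920). The window 16075 bp upstream, under the filter, had 1, 6 and 6 counts in RANKL libraries and 13, 21 and 6 in control libraries, and the third, past the 3′ end, had 1, 2 and 2 against 5, 10 and 1.

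Mep1b, the beta subunit of meprin, is on another chromosome and was not called. Its 4 windows held 72.2, 71.0 and 95.1 CPM in RANKL libraries, against 79.7, 88.1 and 101.9 CPM in control libraries. The groups overlapped, and the log2 fold change was -0.13 ± 0.19 (adjusted p = 0.720), with a 95% interval of -0.51 to 0.25 whose lower end is nearer 0 than the fold change of Mep1a. No test was made of the difference between the subunits. On 2 kb it was 0.018 (adjusted p = 0.951). The window 67 bp outside the gene had 6.28, 12.9 and 25.3 CPM in RANKL libraries, against 20.5, 12.1 and 19.9 CPM in controls (0.043 ± 0.45, adjusted p = 0.961). The windows had log2 fold changes of -0.34 to 0.63, and the one 11940 bp inside the gene had all RANKL libraries lower (18.8, 25.8 and 21.7 CPM, against 29.1, 27.3 and 30.999 CPM in controls) without a call (-0.33 ± 0.36, adjusted p = 0.575).

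**Figure D2:**
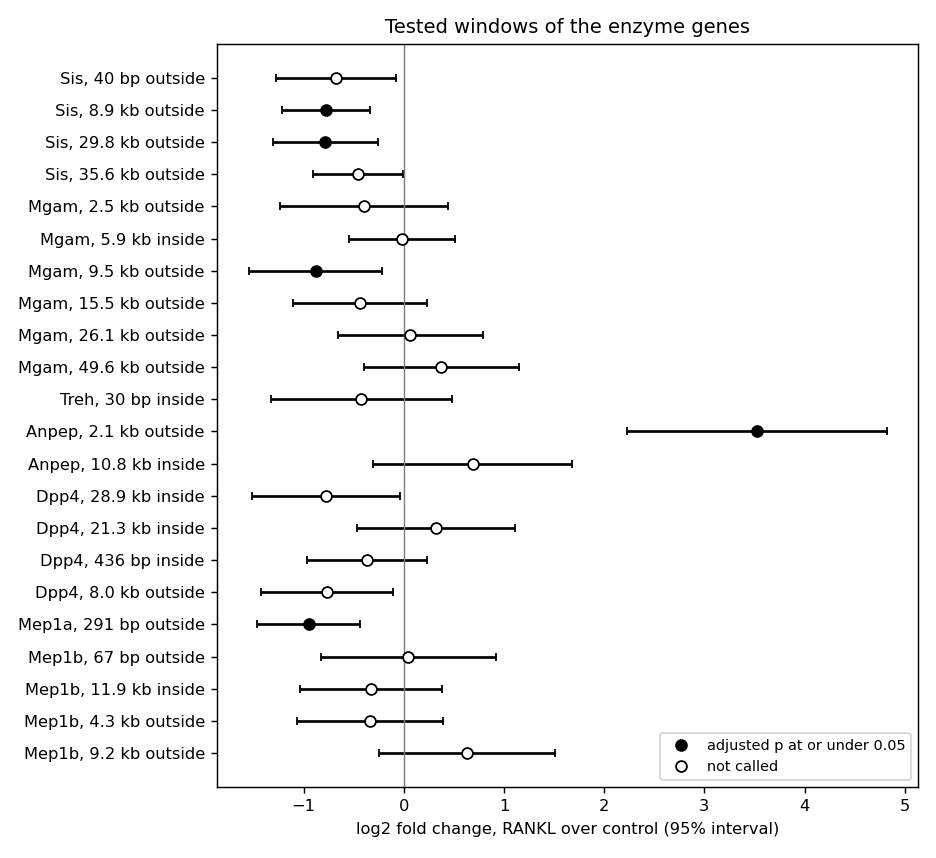
Log2 fold change, RANKL minus control, of each tested window of the enzyme genes, with its 95% interval, named by gene and distance from the nearest gene end. Filled points are called and open points are not. The 4 windows called lower belong to Sis, Mgam and Mep1a, and the 1 called higher, at 3.52, to Anpep.

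Dpp4 encodes dipeptidyl peptidase 4, which cuts dipeptides from peptide ends and inactivates incretin hormones. Its 6 windows held 103.6, 116.1 and 124.0 CPM in RANKL libraries, against 148.6, 115.4 and 179.4 CPM in control libraries. Control replicate 2 lay among the RANKL libraries, and the log2 fold change of -0.32 ± 0.16 was not called (adjusted p = 0.158). Without that control it was -0.51 (adjusted p = 0.0472), and on 2-kb windows it was called at -0.56 (adjusted p = 1.93e-04) and with loess offsets at -0.41 (adjusted p = 0.00835). With all libraries at full depth, the sum of Dpp4 was thus called on the wider windows and that of Mgam on the narrower ones.

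On 2 kb, 3 windows of Dpp4 were called lower, and with loess offsets only the one nearest the start was (-0.60, adjusted p = 0.0485), the others having adjusted p = 0.104 and 0.0521. The window 28815 bp downstream of the start (chr2:62383316-62383515) had 9.41, 17.2 and 21.7 CPM in RANKL libraries, against 33.4, 25.3 and 37.6 CPM in control libraries on 200 bp, groups that did not overlap (-0.78 ± 0.38, adjusted p = 0.134; on 2 kb -0.83, adjusted p = 0.0360). The window nearest the start, 352 bp downstream, gave -0.36 ± 0.31 on 200 bp (adjusted p = 0.440) and -0.83 on 2 kb (adjusted p = 0.00347). The window 8035 bp upstream had 15.7, 23.7 and 22.9 CPM with RANKL, against 38.8, 21.3 and 64.2 CPM in controls (-0.77 ± 0.34, adjusted p = 0.0929; on 2 kb -0.92, adjusted p = 0.00958). The remaining tested window, 21178 bp downstream, differed in sign between widths, at 0.32 ± 0.40 on 200 bp and -0.67 on 2 kb, and neither value was called. No difference between the windows of Dpp4 was called (adjusted p = 0.314).

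Anpep, which encodes aminopeptidase N (CD13), was the one tested enzyme gene with a positive fold change. Its 3 windows held 59.6, 58.1 and 49.4 CPM in RANKL libraries, against 45.2, 31.4 and 39.9 CPM in control libraries. The groups did not overlap, and the log2 fold change of 0.46 ± 0.27 was not called (adjusted p = 0.250; on 2 kb 0.49, adjusted p = 0.0529). Its windows differed from each other in their change (within-gene test, adjusted p = 0.00388), the only enzyme gene of the 5 tested for which they did. With the replicate block that p was 0.0183.

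The called window of Anpep lay 2089 bp past the 3′ end of the gene, 28496 bp downstream of the start (chr7:79819614-79819813). It held 8, 12 and 21 counts in RANKL libraries, against 2, 3 and 0 counts in control libraries, or 25.1, 25.8 and 25.3 CPM against 2.15, 3.04 and 0 CPM. The RANKL values were almost equal to each other. No control library held more than 3 counts, so the window passed the filter on low counts through the RANKL libraries. The log2 fold change was 3.52 ± 0.66 (adjusted p = 3.666e-06), and it was called in all 12 alternatives that gave it a value, on 2 kb among them (1.80, adjusted p = 0.00133). After thinning of all libraries to the shallowest, it was under the filter and not tested.

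Within Anpep, the window 10762 bp inside had 21.97, 19.4 and 15.7 CPM in RANKL libraries, against 8.62, 17.2 and 6.64 CPM in control libraries, with no call (0.69 ± 0.51, adjusted p = 0.370). The window 3794 bp inside, under the filter, ran the other way, with 4, 6 and 7 counts in RANKL libraries and 32, 11 and 15 counts in control libraries. In CPM this was 12.6, 12.9 and 8.43 against 34.5, 11.1 and 33.2, where control replicate 2 lay among the RANKL libraries, and on 2 kb its log2 fold change was -0.60 (adjusted p = 0.189). The sum over Anpep therefore adds windows whose mean differences have unlike signs. The lower one was not tested on 200 bp or called on 2 kb.

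Alpi, the intestinal alkaline phosphatase that removes phosphate from lipids and bacterial endotoxin, had a single window, 31 bp before the start and over 180 of the promoter bases searched. It held 6, 5 and 17 counts in RANKL libraries and 7, 13 and 3 counts in control libraries, or 18.8, 10.8 and 20.5 CPM against 7.54, 13.2 and 6.64 CPM. The groups overlapped and the window was under the filter. On 2 kb the gene gave 0.76 (adjusted p = 0.101).

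**Figure D3:**
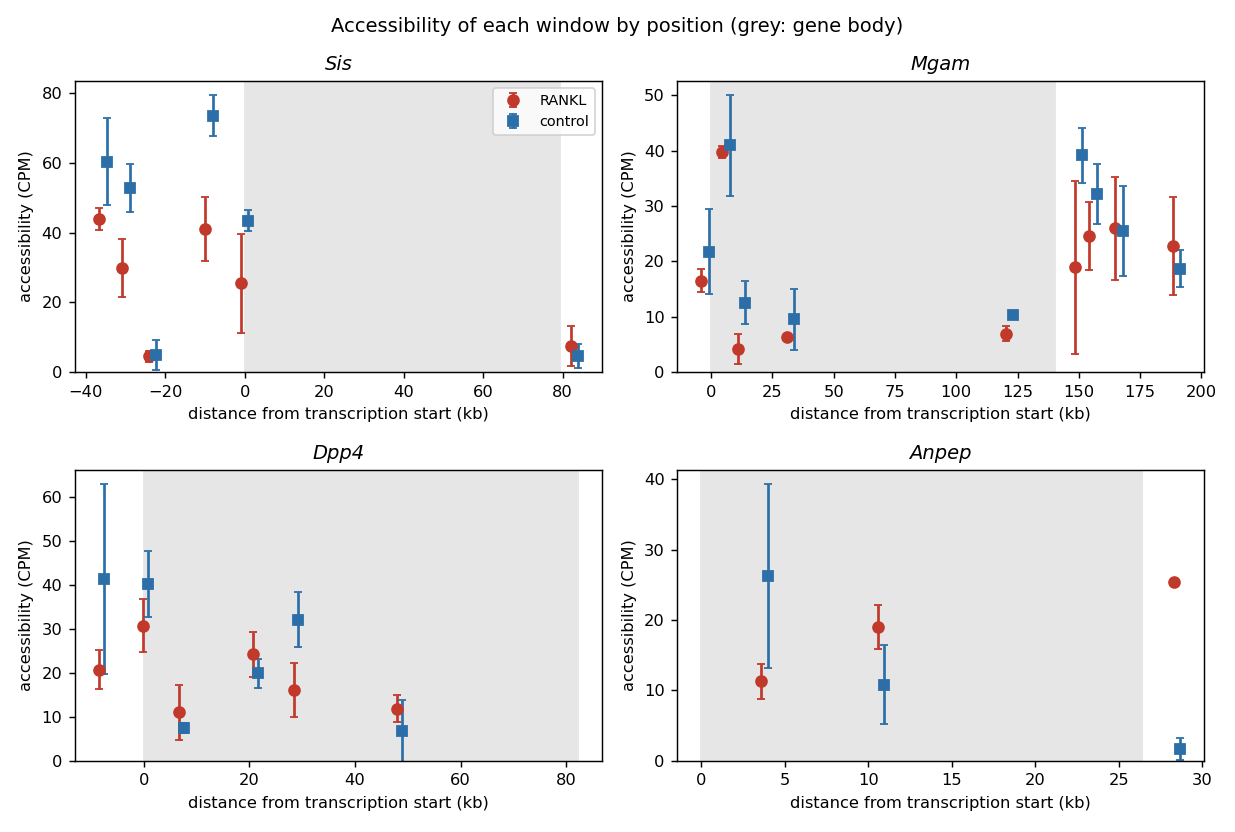
Mean CPM of each window (y axis, linear, from 0, bars are the SD over 3 libraries) by distance from the gene's start in kb (x axis, negative upstream) for Sis, Mgam, Dpp4 and Anpep, with RANKL in red to the left and control in blue to the right, and the gene body in grey. The called windows of Sis lie upstream of the gene, and those of Mgam and Anpep past its 3′ end.

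Taking the windows singly, 22 of the 33 passed the filter on low counts, of which 4 were lower, 1 was higher and 17 were not called, against 10.0% lower and 10.0% higher over all windows tested. The log2 fold change was below 0 in 15 of the 22, and the median was -0.38, whereas 49.4% of all tested windows were below 0 and their median was 0.01. In 5 of the 22 every RANKL library was below every control and in 1 every RANKL library was above, against 18.2% and 15.0% of all tested windows. All 5 called windows lay outside the gene bodies, where 15 windows were tested, and none of the 7 tested windows inside a gene was called. Within 1 kb of a gene end 1 of 5 tested windows was called, and farther out 4 of 17. Over all windows tested 20.1% were called in either direction. They were not split by place or distance, so these counts only describe the enzyme windows. Of the 11 windows under the filter, 7 had a lower mean with RANKL.

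On 2-kb windows 32 of the 33 were tested, of which 9 were lower and 1 was higher, against 10.2% and 8.37% of all 49935 tested. With loess offsets, which remove a trend of the fold change with signal, 4 were lower and 1 higher, against 6.15% and 7.82%. The sign was the same at both widths in 18 of the 22 windows tested on 200 bp.

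**Figure D4:**
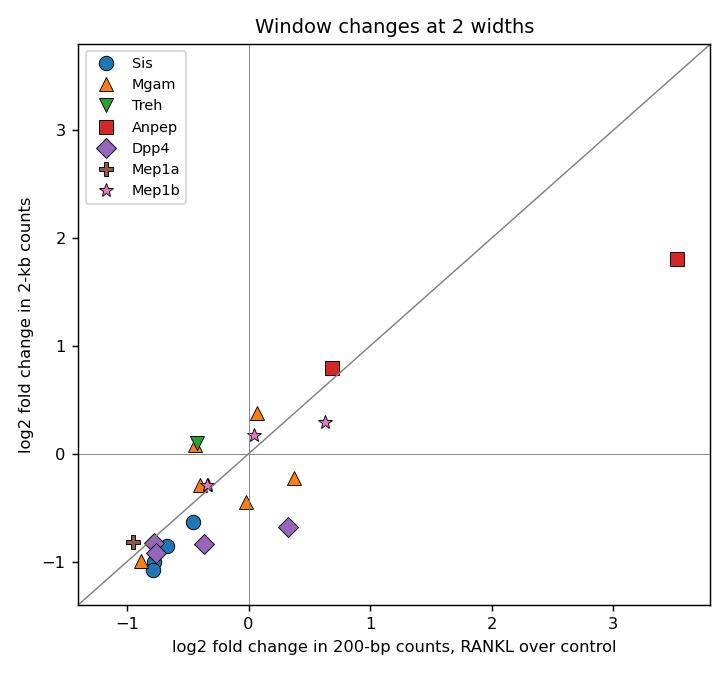
Log2 fold change, RANKL minus control, of the enzyme windows on the 200-bp counts (x axis) and on the 2-kb counts around the same centres (y axis), 1 point per window. Of 22 windows, 18 have the same sign on both axes, and the Anpep window past the 3′ end stands alone at 3.52 and 1.80.

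Windows within 100 kb of an enzyme gene but not assigned to it numbered 54, of which 23 were tested, 1 was lower and 1 higher. Over all windows tested the shares were 10.0% lower and 10.0% higher. Near Mep1b, a window of Garem1, 13577 bp from the enzyme gene, had 18.8, 15.1 and 15.7 CPM in RANKL libraries, against 36.6, 40.5 and 22.1 CPM in control libraries (-1.06 ± 0.37, adjusted p = 0.0273). Near Anpep, a window of Ap3s2, a subunit of an adaptor complex of vesicle traffic, had 15.7, 47.3 and 27.7 CPM in RANKL libraries, against 15.1, 14.2 and 11.1 CPM in control libraries (1.19 ± 0.40, adjusted p = 0.0211). Around Sis, Lct, Treh and Alpi no such window was called, and around Mgam, Dpp4 and Mep1a none was deep enough to test.

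In a wider list of 15 other brush border enzyme genes, 9 were tested, of which 2 were higher and 1 was lower, against 7.01% higher and 8.30% lower over all genes, and their median log2 fold change was -0.11. Plb1, the membrane phospholipase B, had 109.8, 105.4 and 89.1 CPM in RANKL libraries, against 38.8, 42.5 and 19.9 CPM in control libraries (1.41 ± 0.23, adjusted p = 6.652e-08). Asah2, the neutral ceramidase, had 125.5, 116.1 and 165.0 CPM with RANKL, against 73.2, 69.8 and 64.2 CPM in controls (0.97 ± 0.18, adjusted p = 3.719e-06). Both act on lipids, and in both every RANKL library was above every control. Tmprss15, the enteropeptidase that activates trypsinogen, had 31.4, 71.0 and 75.9 CPM with RANKL, against 100.2, 105.3 and 88.6 CPM in controls (-0.66 ± 0.20, adjusted p = 0.0120). That call was lost with DESeq2 and on 2 kb with loess offsets (-0.33, adjusted p = 0.116). The other 6 tested, among them Enpep, Mme and Dpep1, were not called, and Ace, Ggt1, Naaladl1 and Enpp7 had no window. Akp3, of the same list and under the filter on 200 bp, was higher on 2 kb (2.71, adjusted p = 7.7e-10). On 2 kb 3 of 11 tested were higher and 1 lower, against 1466 and 1924 of all 15595 genes. With loess offsets 3 were higher and 0 lower, against 1524 and 1422. The list summed to 593.6 to 657.5 CPM with RANKL and 491.6 to 602.3 CPM in controls, which overlap.

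Of 10 genes for transcription factors known to act on brush border genes, 1 was lower, against 8.30% of all genes tested, with a median of -0.12. Hnf4g, a nuclear receptor of enterocytes, had 313.8, 255.9 and 268.6 CPM in RANKL libraries, against 356.5, 389.7 and 425.1 CPM in control libraries (-0.52 ± 0.11, adjusted p = 5.871e-05). Its relative Hnf4a had 0.058 ± 0.11 (adjusted p = 0.779) on 200 bp. None of the 10 was higher on 200 bp, where 1 had an unadjusted p under 0.05 in that direction. DESeq2 called none of them higher, against 410 of all 12467 genes. The counts depended on width and scaling. On 2 kb 3 were lower, Hnf4g, Cdx2 (-0.32, adjusted p = 0.0136) and Prdm1 (-0.34, adjusted p = 0.00556), and none was higher. With loess offsets Hnf4g was lower (-0.23, adjusted p = 0.0353), and Hnf4a (0.31, adjusted p = 0.00373) and Gata4 (0.34, adjusted p = 0.00137) were higher. Of all 15595 genes tested on 2 kb, 1924 were lower and 1466 higher, and with loess offsets 1422 and 1524. The 14 other genes of enterocytes (fatty acid binding proteins, apolipoproteins, transporters and microvillus proteins) gave no call in 11 tested, with a median of -0.24. At an unadjusted p under 0.05, 2 of them were lower and 0 higher, and with DESeq2 none was called. On 2 kb, however, 3 of 14 tested were higher and 1 was lower. With loess offsets 3 were again higher and 1 lower, beside the 2-kb counts of all genes given above.

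Some marker genes of other cell types differed between the groups, where 7.01% higher and 8.30% lower were called over all genes tested. Of the M cell genes 5 of 8 tested were higher, led by H2-M2, Marcksl1, Msln and Sox8, with a summed level of 658.7 to 797.9 CPM in RANKL libraries and 375.5 to 411.5 CPM in control libraries. Lower were 5 of 11 tested genes of crypt stem cells, led by Olfm4, Lgr5, Sox9 and Cd44, 4 of 10 of goblet cells (Atoh1, Bcas1, Retnlb and Spink4) and 1 of 3 of Paneth cells (Mptx1). The remaining crypt gene called, Smoc2 (-0.49, adjusted p = 0.0282), had overlapping groups and was -0.11 on 2 kb (adjusted p = 0.565). Tuft cell genes gave 1 higher (Dclk1) and 2 lower (Rgs13 and Sucnr1) of 6 tested, and enteroendocrine genes 1 higher (Gip) of 3. With DESeq2, 4 M cell genes were higher, 3 crypt stem, 3 goblet, 1 Paneth and 2 tuft cell genes were lower, and no tuft or enteroendocrine gene was higher. Over all 12467 genes, DESeq2 called 410 higher and 489 lower. Goblet sums were 587.7 to 690.4 CPM with RANKL, against 850.3 to 924.2 CPM in controls. The part of any shift in cell makeup in the enzyme results was not tested. Among haematopoietic genes Cd3e, Cd68 and Lyz2 had no window and 1 of 3 tested was higher (Zap70), and of 5 tested mesenchymal genes none was called by edgeR or DESeq2 and none had an unadjusted p under 0.05. Their sums were 87.9 to 131.2 and 191.4 to 221.6 CPM in RANKL libraries, against 77.5 to 98.2 and 194.9 to 229.4 CPM in control libraries.

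The genes whose pattern over the 6 libraries was most like that of Sis were Cracr2a, Tamm41, Slc26a3, Adra2a and Slc9a3. Likeness was the root mean square difference of centred log2 CPM, which was 0.051 for Cracr2a and 0.085 to 0.087 for the other 4, against a median of 0.499 over 12035 genes. These genes were picked by their values in the same 6 libraries. Their lower levels and small adjusted p-values therefore follow from the choice and are no separate result. Slc26a3, an exchanger of chloride and bicarbonate, had 75.3, 116.1 and 85.5 CPM in RANKL libraries, against 153.0, 146.8 and 155.0 CPM in control libraries (-0.74 ± 0.16, adjusted p = 2.2e-04). Slc9a3, an exchanger of sodium and protons, had 40.8, 62.4 and 49.4 CPM with RANKL, against 86.2, 90.1 and 68.6 CPM in controls (-0.73 ± 0.22, adjusted p = 0.0106). The log2 fold change was -0.76 ± 0.17 for Cracr2a, -0.60 ± 0.21 for Tamm41 and -0.74 ± 0.18 for Adra2a. Among the enzyme genes Mgam was most like Sis, at 0.19, followed by Dpp4 at 0.30, Mep1b at 0.37, Mep1a at 0.53, Anpep at 0.63 and Treh at 0.83. The last 3 were no closer to Sis than the median gene.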

How the data were processed

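ATAC-seq libraries of 3 RANKL-treated and 3 control organoid cultures were compared. The authors deposited whole-number read counts in 55056 windows of 200 bp, and a score for 2-kb windows around 55050 of the same centres. By its values, the deposited score is ln(count + 1), with the natural log then centred and scaled per library, and undoing this gave 2-kb counts at most 0.00733 from whole numbers. Builds mm10 and GRCm38 appear in the submitters' processing notes with DESeq2 1.34.0, MACS2 2.2.7, Picard, BWA 0.7.17 and fastp 0.20.1, whose roles are unstated. The choice of windows, any shift for the Tn5 cut and any removal of duplicates are not given in the sources used. Counts in 200 bp miss reads at the flanks of a broad site.

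Each window was assigned, by its centre, to the nearest end of a protein-coding gene in a RefSeq table of GRCm38.p6 (21900 genes) within 50 kb, so a window can act on another gene than the one it is named for. Starts and strands came from the RefSeq promoter table. Counts of windows, and their sums per gene, went into edgeR 4.0.16 under R 4.3.3 (TMM, filterByExpr, robust quasi-likelihood fit, no covariate) over all features, with p-values adjusted by Benjamini-Hochberg and called at 0.05. CPM is the count scaled by the library total and its TMM factor, which was 0.989 to 1.01. SE is |log2 fold change| over the root of the F statistic. Differences between windows of a gene used edgeR's diffSpliceDGE on 3926 genes. Intervals cover the spread between libraries. DESeq2 1.42.0, other normalization and filters, thinning, the wider windows, other distances, each library left out and a replicate block were alternatives. Scripts were tested on simulated data.

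The members, the 11 other gene lists and the motifs were chosen with earlier results of these data known. Named were all members with their windows, the members of other lists called over all genes (up to 4 a list, by adjusted p), neighbouring genes with a called window, and the 5 genes most like the called member with the smallest adjusted p (symbols of predicted genes left out). Other named genes were chosen after their values were seen. Both groups carry experiment numbers 1 to 3 in the labels. Deviations of same-numbered libraries from their group means had correlations of -0.03, 0.02 and -0.01 over 21618 windows, and blocked values are printed where they change a call.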

Additional observations from a re-analysis of the deposited data

How the results depend on the processing

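The choices that moved the counts most were the window width, the tool, the depth and the distance. Against 2166 higher and 2169 lower windows and 874 higher and 1035 lower genes in all, 2-kb counts gave 4181 and 5076 windows and 1466 and 1924 genes, and with loess offsets 3904 and 3073 windows and 1524 and 1422 genes, so that the balance of 2-kb calls turned from mostly lower (45.2% of called windows higher) to mostly higher (55.96%). DESeq2 gave 1264 and 1039 windows and 410 and 489 genes, and thinning to 322173 counts gave 580 and 784 windows and 399 and 552 genes. Summing windows within 5 kb gave 384 and 501 genes and within 1 kb 219 and 300, each with fewer genes tested. The split of called windows was 3204 higher and 1973 lower without the filter, against 49.97% higher with it. With the replicate block, whose numbers may not pair the libraries, 1807 and 1827 windows and 710 and 876 genes were called. Leaving out 1 library gave 1337 to 2802 higher and 1475 to 2229 lower windows, and 543 to 848 higher and 676 to 944 lower genes.

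Of the enzyme windows, 4 were lower and 1 higher. The lower count was 0 with DESeq2, 2 without the filter, 2 after thinning, 2 with the replicate block, 9 on 2 kb and 1 to 6 with 1 library left out, lowest without RANKL replicate 3 (1) and 2 without RANKL replicate 1 or control replicate 1. The higher count was 0 after thinning, where fewer windows were tested. Of 3 lower genes, 1 was left within 5 kb and 1 within 1 kb, and 2 to 3 with 1 library left out. The within-gene call of Anpep was 0 to 1, since without control replicate 1 only 1 of its windows was tested.

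Directions that turned belonged to values that were not called. These were Treh with 1 library left out (-0.92 to 0.23) and on 2 kb (0.15), its window under the same settings (-0.90 to 0.29, and 0.096) and with loess offsets (0.13), and Mep1b on 2 kb (0.018) and with loess offsets (0.089). Among Mgam windows, the one 5943 bp inside turned with 1 library left out (-0.20 to 0.18) and after thinning (0.32), that at 15473 bp on 2 kb (0.085, and 0.29 with loess offsets), that at 26080 bp without RANKL replicate 2 (-0.26), without control replicate 1 (-0.22) and after thinning (-0.35), and that at 49589 bp on 2 kb (-0.22, and -0.23 with loess offsets). The Dpp4 window 21178 bp downstream turned on 2 kb (-0.67, and -0.49 with loess offsets), and the Mep1b window 67 bp outside with DESeq2 (-0.032) and the replicate block (-0.17). The causes were not tested. At these depths, 3 counts being 3.04 to 9.41 CPM, windows such as that of Alpi could not be tested.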

Other observations

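Some genes near the enzyme genes, or of the same cells, were under the filter or uncalled on 200 bp and were called only on 2-kb windows. They were chosen after their values were seen. Akp3, an alkaline phosphatase gene beside Alpi and a related copy with which it could share reads, had 43.9, 32.3 and 12.04 CPM in RANKL libraries over its 2 windows, against 3.23, 3.04 and 2.21 CPM in control libraries. Every RANKL library was above every control, and on 2 kb its log2 fold change was 2.71 (adjusted p = 7.7e-10). Its window 20826 bp from Alpi held 12, 5 and 8 counts in RANKL libraries and 2, 3 and 1 counts in control libraries, and the window 26547 bp away 2, 10 and 2 counts against 1, 0 and 0. Among enterocyte genes on 2 kb, Apoa4, an apolipoprotein of fat absorption, had 1.35 (adjusted p = 1.96e-04), Krt20, a keratin of mature cells, 1.51 (adjusted p = 0.0125, and 0.0622 with loess offsets) and Cdhr5, a protocadherin of microvilli, 0.76 (adjusted p = 0.0077). Apob, the apolipoprotein of chylomicrons, had -0.73 (adjusted p = 2.5e-04). These were 3 higher and 1 lower of 14 enterocyte genes tested on 2 kb, against 1466 and 1924 of all 15595 genes. Slc2a2 was called higher only with loess offsets (0.39, adjusted p = 0.0128). Near Mgam, a window of Moxd2 held 2, 8 and 11 counts in RANKL libraries and 0, 1 and 0 counts in control libraries and was not tested.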
